A study of Mus musculus with 16 samples.

Results

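The genes described here are *Enah*, *Vasp* and *Evl*, which make up the mouse Ena/VASP family of actin regulators, and *Zyx*, which encodes their adhesion partner zyxin. They were taken by name: 4 genes out of 56953 in the count table of 16 mouse left ventricles, together with every splicing event filed under their symbols, 38 distinct events over 3 deposited rMATS tables. The family was chosen with counts and splicing values of these libraries in view, so its members count as selected on the difference between mutant and wild-type hearts given the control virus, and that difference is described without a test: calls in it stand only beside the share of all genes or events called, and nothing is read from them. Among the 4 genes, *Enah* was the gene whose counts differed between groups. Its level in P635L hearts given the control virus was 2.62-fold that of wild-type hearts, and in P635L hearts given the Tnpo3 virus it was 0.50-fold that of the P635L controls, while *Vasp*, *Evl* and *Zyx* were called in none of the comparisons.

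Ena/VASP proteins bind the growing ends of actin filaments, hold off capping protein and take up profilin-bound actin, so that filaments grow longer. Their EVH1 domain docks on proline-rich motifs in zyxin, vinculin and lamellipodin, which brings them to adhesions, and their EVH2 domain binds actin and joins the proteins into tetramers. In heart muscle, Mena (the *Enah* product) and VASP are known at the intercalated discs, the junctions between cardiomyocytes. RBM20 is a splicing regulator of heart and skeletal muscle transcripts, and transportin 3 (*Tnpo3*) carries proteins rich in serine and arginine into the nucleus.

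The study has 4 groups of 4 mice on the Bl6J background, males and females, either wild type (WT) or homozygous for the P635L mutation of RBM20. At 4 weeks of age all mice received 1e12 vector genomes of AAV9 through the tail vein, and hearts were taken 12 weeks later, at 16 weeks. The control virus (Ctr) carried a construct for the recombinase iCre and eGFP under the CAG promoter, and the other virus carried the Tnpo3 cDNA. A contrast between viruses therefore sets Tnpo3 against iCre with eGFP, and no group without a virus is among the samples. The wild-type groups are called WT Ctr and WT Tnpo3 and the mutant groups P635L Ctr and P635L Tnpo3. Each library is 1 mouse, and its sex is not given. Poly(A) RNA of the left ventricle was sequenced as stranded libraries.

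The 4 alternative coding exons printed first return in the results, and their sequences show what a change in inclusion adds to or removes from the protein. They are read 5′ to 3′ on the strand of the gene from GENCODE M21 transcripts, to which the exon and intron lengths of the events were matched. All 28 event boundaries of *Enah*, 20 of *Evl* and 23 of *Zyx* fell on exon boundaries of that annotation. Capitals mark the alternative exon and small letters the last and first 15 bases of its neighbours. The 57-base exon of *Enah* (chr1:181763225-181763281, minus strand, GRCm39 as in the splicing tables) is the one known as INV, which encodes 19 residues and is best known from invasive tumour cells. The 63-base exon of *Enah* (chr1:181739162-181739224, minus strand) is the one known as 11a, which encodes 21 residues and is best known from epithelial cells. The 63-base exon of *Evl* (chr12:108649607-108649669, plus strand) encodes the 21-residue insert of the form called EVL-I. The 93-base exon of *Zyx* (chr6:42328204-42328296, plus strand) encodes 31 residues.
Enah 57-base exon: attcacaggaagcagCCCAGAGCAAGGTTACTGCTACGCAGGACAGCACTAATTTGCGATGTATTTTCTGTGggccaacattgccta
Enah 63-base exon: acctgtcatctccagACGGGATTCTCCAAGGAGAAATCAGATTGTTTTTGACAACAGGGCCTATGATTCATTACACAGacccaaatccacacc
Evl 63-base exon: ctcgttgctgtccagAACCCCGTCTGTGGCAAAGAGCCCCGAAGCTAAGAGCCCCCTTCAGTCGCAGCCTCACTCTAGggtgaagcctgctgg
Zyx 93-base exon: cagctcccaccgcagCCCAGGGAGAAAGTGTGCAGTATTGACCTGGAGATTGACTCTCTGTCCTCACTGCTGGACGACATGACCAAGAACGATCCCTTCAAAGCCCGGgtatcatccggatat

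The longest alternative segment belongs to *Enah*. A choice between 2 acceptor sites of an exon (chr1:181749223-181750065, minus strand) either includes or skips 732 bases, which encode 244 residues of the large Mena form known from neurons. The junctions that tell the 2 forms apart are printed next, with bases of the 732-base segment in capitals and those of the exon before it and of the common segment after it in small letters.
Enah long form, upstream exon into the extra segment: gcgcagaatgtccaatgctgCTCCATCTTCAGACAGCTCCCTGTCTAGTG
Enah long form, extra segment into the common segment: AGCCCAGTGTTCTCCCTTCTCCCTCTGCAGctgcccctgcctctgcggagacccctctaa
Enah short form, upstream exon into the common segment: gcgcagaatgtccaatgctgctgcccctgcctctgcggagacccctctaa

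The libraries held between 28493249 and 85922669 counts. In 3 WT libraries the gene ENSMUSG00000119584 took 19.96% to 22.65% of counts, against 0.70% to 5.30% in the others, and in 3 WT libraries, but in no P635L library, *Xist* exceeded the summed Y-linked genes. Sex was thus not balanced over genotypes in these libraries, and values without these libraries are given where they bear on *Enah*. *Tnpo3* was 7.15-fold higher with its virus in WT hearts (adjusted p = 0.000814 by edgeR, but 0.281 without the libraries rich in ENSMUSG00000119584 and 0.102 without the *Xist*-high ones) and 10.44-fold higher in P635L hearts (adjusted p = 1.49e-05), as the virus labels say, although it shares exonic bases with *Irf5*. Markers of cardiomyocytes (*Myh6*, *Actc1*, *Tnnt2*, *Ryr2* and *Pln*) were detected in every library. Library WT Ctr replicate 1 stood apart in leukocyte genes: its 4 pan-leukocyte markers summed to 323.2 CPM (counts scaled to a common library size, the standard CPM unit), against 48.8 to 126.6 in the other 15 libraries.

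*Enah* (ENSMUSG00000022995, chr1:181723949-181847555, minus strand, GRCm39) encodes Mena. In WT Ctr hearts its CPM values were 87.6, 111.1, 92.2 and 103.7 in replicates 1 to 4, and in P635L Ctr hearts 250.0, 269.2, 269.1 and 245.7. Every P635L Ctr library lay above every WT Ctr library, and the P635L values lay close together. The means were 98.6 ± 10.7 and 258.5 ± 12.4 CPM (SD, n = 4 each), which is 1.39 on the log2 scale with a standard error of 0.141. In this contrast edgeR called 14.2% of all 18662 genes tested and 1 of the 4 members, and 19.1% of genes had groups that did not overlap. Without the 3 libraries rich in ENSMUSG00000119584 the log2 fold change was 1.56, and without the 3 libraries high in *Xist* it was 1.45.

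With the Tnpo3 virus, *Enah* fell in P635L hearts. The 4 P635L Tnpo3 libraries had 120.5, 107.1, 113.8 and 175.2 CPM, a mean of 129.2 ± 31.2 CPM (SD, n = 4). All 4 lay below all 4 P635L Ctr libraries, and replicate 4 lay highest among them. The P635L Ctr libraries are also part of the difference that the members were selected on, so the test that follows is not independent of the choice. The log2 fold change between the virus groups was -1.001 (standard error 0.139), with an adjusted p of 0.000484 by edgeR's quasi-likelihood test over all genes and p = 0.0286 by an exact two-sided permutation test, the smallest that 4 against 4 libraries allow. *Enah* was the only 1 of the 4 members called, where 3.88% of all genes were called and 20.4% had groups that did not overlap. Leaving out any 1 library gave log2 fold changes from -1.19 to -0.91, and each kept the call.

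In WT hearts no difference in *Enah* with the Tnpo3 virus was detected. WT Tnpo3 libraries had 106.6, 109.4, 87.9 and 98.8 CPM, with a mean of 100.7 ± 9.61 (SD, n = 4). These values lay among those of the WT Ctr libraries. The log2 fold change was 0.03 (standard error 0.138, adjusted p = 1 by edgeR). In that contrast 1 gene, 0.00536% of those tested, was called in all, *Tnpo3* itself, and 597 genes had an unadjusted p under 0.05. No member was called and none of the 4 had an unadjusted p under 0.05.

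The difference between the virus effects in the 2 genotypes was fitted as an interaction. For *Enah* it was -1.03 on the log2 scale (standard error 0.196), with the lower virus effect in P635L hearts. It contains the difference between P635L Ctr and WT Ctr that the members were selected on, and is therefore a description. edgeR called it for 0.504% of all genes and for 1 of the 4 members (adjusted p = 0.0188), and nothing is read from that call. It was lost in 4 of 23 alternatives: the adjusted p was 0.0714 without the 3 *Xist*-high libraries, 0.0536 without WT Ctr replicate 3, and in the P635L Tnpo3 group 0.0535 without replicate 1 and 0.0598 without replicate 3. The interaction itself ranged from -1.22 to -0.96 over all single libraries left out.

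The *Enah* level of P635L Tnpo3 hearts lay between those of P635L Ctr and WT hearts, nearer to WT. Against WT Ctr the log2 fold change was 0.39 (standard error 0.138, adjusted p = 0.139 by edgeR), and against WT Tnpo3 it was 0.36 (standard error 0.138, adjusted p = 0.152). In both comparisons the groups overlapped, and the exact two-sided permutation test gave p = 0.0571. Of the 4 P635L Tnpo3 libraries 3 lay above every WT library, and without the highest, replicate 4, the 2 differences were 0.21 and 0.18. Those were the lowest values over the 16 alternatives of each, and the highest were 0.56 against WT Ctr and 0.45 against WT Tnpo3. None of the alternatives gave a call. Across all genes, 3.07% were called against WT Ctr and 3.72% against WT Tnpo3, and none of the 4 members was. In the authors' deposited DESeq2 table the log2 fold change of *Enah* between P635L Tnpo3 and WT Ctr was 0.42, with an adjusted p of 0.14.

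**Figure D1:**
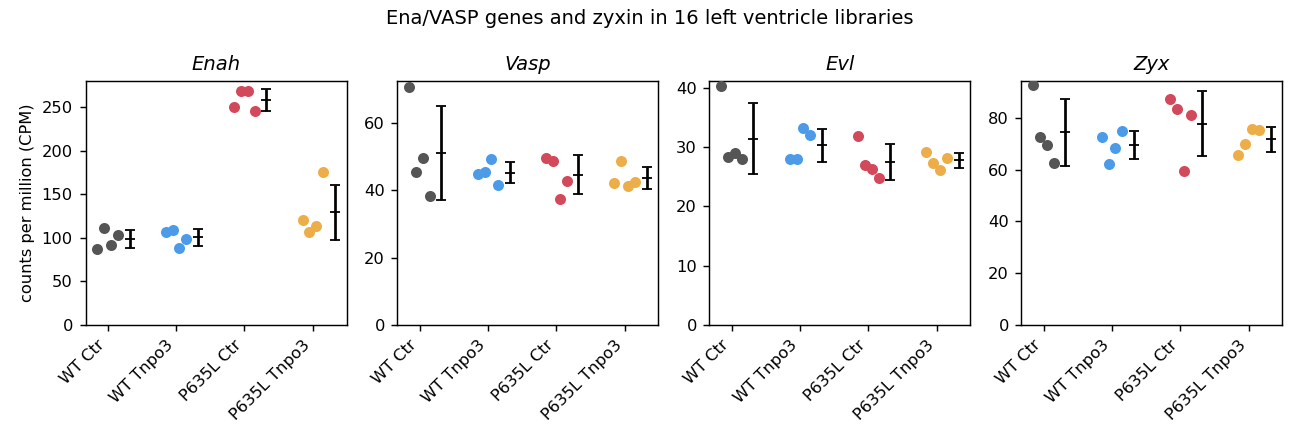
CPM (y axis, from 0) of Enah, Vasp, Evl and Zyx in each of the 16 libraries (points, replicates 1 to 4 from left to right within a group), with the group mean and SD (black bar, n = 4). The 4 P635L Ctr libraries lie at 245.7 to 269.2 CPM for Enah, above all other groups, while the groups of the other 3 genes overlap.

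*Vasp* (ENSMUSG00000030403, chr7:18990854-19005742) encodes VASP, the family member first known as a substrate of cyclic nucleotide-dependent kinases in platelets. Its CPM values were 70.9, 45.5, 49.7 and 38.3 in WT Ctr, 44.95, 45.5, 49.3 and 41.5 in WT Tnpo3, 49.8, 48.8, 37.5 and 42.7 in P635L Ctr, and 42.3, 48.6, 41.3 and 42.6 in P635L Tnpo3. WT Ctr replicate 1, the library high in leukocyte markers, was the highest of the 16, and the other 15 overlapped across groups. The log2 fold change with the Tnpo3 virus was -0.03 in P635L hearts (standard error 0.149, adjusted p = 0.94 by edgeR) and -0.17 in WT hearts (standard error 0.15, adjusted p = 1).

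*Evl* (chr12:108520979-108654775) encodes EVL, a family member with high levels in lymphocytes and brain. WT Ctr replicate 1 had 40.4 CPM, and the other 15 libraries had 24.7 to 33.3 CPM. Group means were 31.4 ± 5.96 in WT Ctr, 30.3 ± 2.75 in WT Tnpo3, 27.4 ± 3.07 in P635L Ctr and 27.7 ± 1.25 CPM in P635L Tnpo3 (SD, n = 4 each). The groups overlapped, and apart from the single high library the 4 groups span the same narrow range. With the Tnpo3 virus the log2 fold change was 0.02 in P635L hearts (standard error 0.122, adjusted p = 0.966 by edgeR). In WT Ctr replicate 1 the lymphocyte markers summed to 28.0 CPM, against 1.40 to 7.30 in the others. Whether those cells gave the high *Evl* value was not tested.

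*Zyx* (chr6:42326564-42337147) encodes zyxin, a LIM-domain protein of focal adhesions and stress fibres that binds alpha-actinin and recruits Ena/VASP proteins. Its group means were 74.4 ± 12.9 in WT Ctr, 69.5 ± 5.59 in WT Tnpo3, 77.8 ± 12.5 in P635L Ctr and 71.8 ± 4.79 CPM in P635L Tnpo3 (SD, n = 4 each). The single libraries ran from 59.4 CPM in P635L Ctr replicate 3 to 92.6 in WT Ctr replicate 1. So the lowest and the highest library both came from control-virus groups. The log2 fold change with the Tnpo3 virus was -0.12 in P635L hearts (standard error 0.132, adjusted p = 0.711 by edgeR) and -0.10 in WT hearts (standard error 0.133, adjusted p = 1). *Evl* shares 278 exonic bases with *Degs2* and *Zyx* shares 236 with *Epha1* on the opposite strand. The sources used here do not give the strand setting of the counting, so reads over those bases cannot be assigned, whereas *Enah* and *Vasp* overlap no other gene.

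Levels between the genes can be set side by side per length of exon, but their order depends on the length used. In RPKM (CPM divided by the exonic length in kilobases), WT Ctr hearts had 19.5 ± 5.35 of *Vasp*, 13.8 ± 2.39 of *Zyx*, 10.7 ± 2.03 of *Evl* and 4.60 ± 0.50 of *Enah* (SD, n = 4 each). The gaps from *Vasp* to *Zyx* and from *Zyx* to *Evl* were little more than the larger SD of each pair, and *Enah* lay well below *Evl*. In P635L Ctr hearts *Enah* reached 12.1 ± 0.58 RPKM, between *Evl* at 9.33 ± 1.04 and *Zyx* at 14.4 ± 2.32. In P635L Tnpo3 hearts it lay lowest again, at 6.02 ± 1.45 RPKM. The exonic length of *Enah* used here is 21452 bases, much of it in long untranslated ends, against 2617 to 5390 bases for the other genes. By CPM, without a length, *Enah* was the highest of the 4 genes in WT Ctr hearts, at 98.6 against 31.4 to 74.4. Which bases of that length are transcribed in these hearts was not tested.

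**Figure D2:**
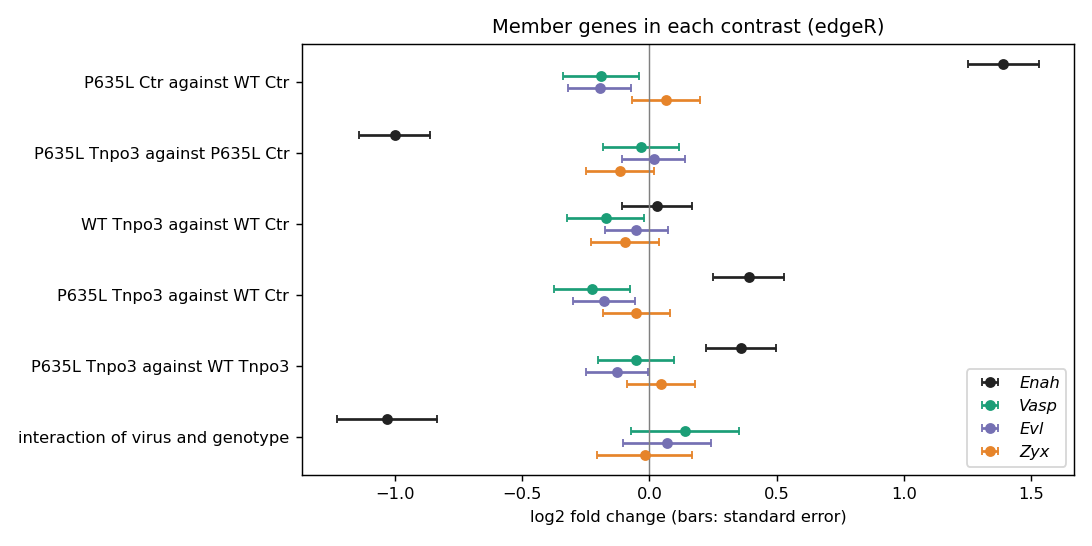
Log2 fold change (x axis, points) with standard error (bars) of the 4 genes in 5 contrasts and in the interaction of virus and genotype, from 1 edgeR fit of 16 libraries. Enah stands at 1.39 for P635L Ctr against WT Ctr, at -1.001 for P635L Tnpo3 against P635L Ctr and at -1.03 in the interaction, and the other 3 genes lie between -0.22 and 0.14 throughout.

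Between groups, fibroblast markers moved together with *Enah*. All 5 of *Col1a1*, *Dcn*, *Pdgfra*, *Lum* and *Tcf21* were called higher in P635L Ctr than in WT Ctr hearts, and 4 of the 5 were called lower in P635L Tnpo3 than in P635L Ctr hearts (*Tcf21* was not, with an adjusted p of 0.0581 by edgeR). Over all genes, 7.07% were called higher in the former contrast and 2.25% lower in the latter. The summed CPM of the 5 markers ran from 624.6 to 907.3 in WT Ctr and 684.9 to 835.9 in WT Tnpo3. It ran from 1067 to 1566 in P635L Ctr and 704.6 to 960.2 in P635L Tnpo3. No marker was at 0 in any library. *Pdgfra*, the receptor that marks fibroblasts, was 2.08-fold in P635L Ctr against WT Ctr and 0.53-fold in P635L Tnpo3 against P635L Ctr. Over the same steps *Enah* was 2.62-fold and 0.50-fold. Within groups the order differed. In the P635L Tnpo3 group, replicate 4 was highest for both, with 960.2 CPM of fibroblast markers, but replicate 2, next in markers at 900 CPM, was lowest in *Enah*. In the P635L Ctr group the library highest in markers, replicate 4 at 1566 CPM, was lowest in *Enah*. So was WT Ctr replicate 1, at 907.3 CPM of markers, in its group. In the WT Tnpo3 group the library highest in markers, replicate 1 at 835.9 CPM, was next to highest in *Enah*. The part of fibroblasts in the *Enah* level was not tested, and in bulk tissue more cells of a type and more RNA per cell cannot be told apart. Other cell types did not all follow. Cardiomyocyte markers summed to 47360 to 57740 CPM in WT Ctr, 36920 to 57620 in WT Tnpo3, 35850 to 39890 in P635L Ctr and 34290 to 43290 CPM in P635L Tnpo3, so their range in P635L hearts stayed low with the Tnpo3 virus. Macrophage markers summed to 136.9 to 178.8 CPM in P635L Ctr and 196.6 to 309 CPM in P635L Tnpo3, without overlap, with 5 of 5 log2 fold changes positive and 0 called. Platelet markers summed to 17.56 to 22.5 and 24.6 to 42.67 CPM, also without overlap, and 1 of the 4 tested, *Pf4*, was called higher at 0.74 (adjusted p = 0.0273 by edgeR). *Pf4* made up most of these sums, with means of 12.67 and 21.23 CPM, and *Itga2b*, *Gp9* and *Ppbp* each overlapped between the groups. The part of these cell types in the *Enah* level was not tested.

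**Figure D3:**
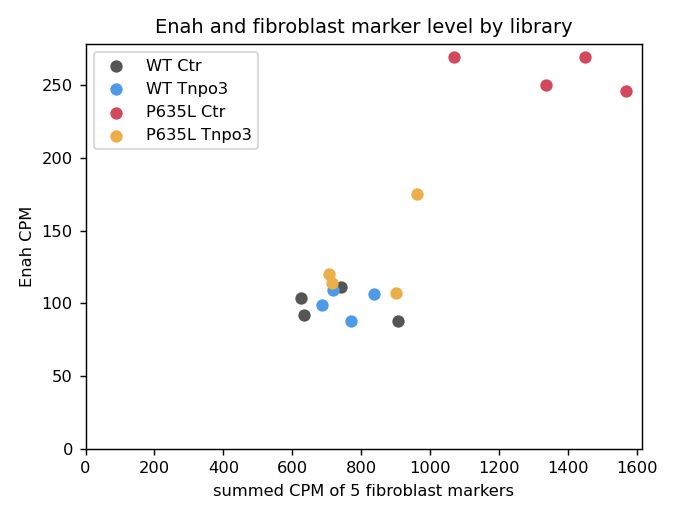
Enah CPM (y axis) against the summed CPM of 5 fibroblast markers (x axis) in each of the 16 libraries, coloured by group. P635L Ctr libraries lie apart at 1067 to 1566 CPM of markers and 245.7 to 269.2 CPM of Enah, and the other 3 groups share 1 range of markers.

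Counts of calls in the wider set of Ena/VASP ligands, regulators and competitors were too small to set apart from the share of all genes called. Of 29 listed partners, all of them tested, 2 were called higher and 0 lower in P635L Ctr than in WT Ctr hearts, where 7.07% of all genes were called higher and 7.14% lower. The median log2 fold change of the partners was 0.10, against -0.05 over all genes. The called genes were *Wtip*, a zyxin-related LIM protein, at 0.73 (standard error 0.173), and *Xirp2*, at 0.82 (standard error 0.196). *Xirp2* encodes a large actin-binding protein of the intercalated disc. The partners were also listed with earlier results of these data known, so this contrast is described without a test for them too. *Xirp2* had 306.8, 509.9, 377.2 and 452.3 CPM in WT Ctr and 801.2, 697.7, 823.6 and 576.4 CPM in P635L Ctr. Its groups did not overlap, as was so for 19.1% of all genes.

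With the Tnpo3 virus in P635L hearts, 0 partners were called higher and 1 lower, where 1.63% and 2.25% of all genes were called higher and lower. The latter was *Xirp1*, encoding Xin, an intercalated-disc protein that binds Mena and VASP. *Xirp1* fell from 215.9, 253.3, 195.7 and 212.5 CPM in P635L Ctr to 140.2, 127.3, 143.8 and 122.8 CPM in P635L Tnpo3, a log2 fold change of -0.72 (standard error 0.173, adjusted p = 0.0262). The partners were listed with earlier results of these data known, so this edgeR test is not independent of the choice. The 2 groups did not overlap, as was so for 20.4% of all genes. Of the 4 P635L Tnpo3 libraries, 3 also lay below the lowest WT Ctr library, at 142.9 CPM. *Prkg1*, the cyclic GMP-dependent kinase that phosphorylates VASP, had a log2 fold change of -0.66 (adjusted p = 0.0819) and *Xirp2* of -0.45 (adjusted p = 0.222). *Pxn*, which encodes the adhesion scaffold paxillin, was the 1 partner called between P635L Tnpo3 and WT Tnpo3 hearts, at 0.55 (standard error 0.144, adjusted p = 0.0399), where 1.72% of all genes were called higher. None was called in WT hearts with the virus, between P635L Tnpo3 and WT Ctr, or in the interaction.

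Direct ligands and suppliers of the family were among the partners without a call. The profilins *Pfn1* and *Pfn2*, which deliver actin, had log2 fold changes of -0.14 and 0.12 in P635L Ctr against WT Ctr. *Raph1*, encoding lamellipodin, had 0.03. *Vcl*, encoding vinculin, had the lowest value of the partners at -0.82 (standard error 0.305), with groups that overlapped. It shares 2090 exonic bases with *Ap3m1* on the opposite strand, so reads over those bases cannot be assigned.

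**Figure D4:**
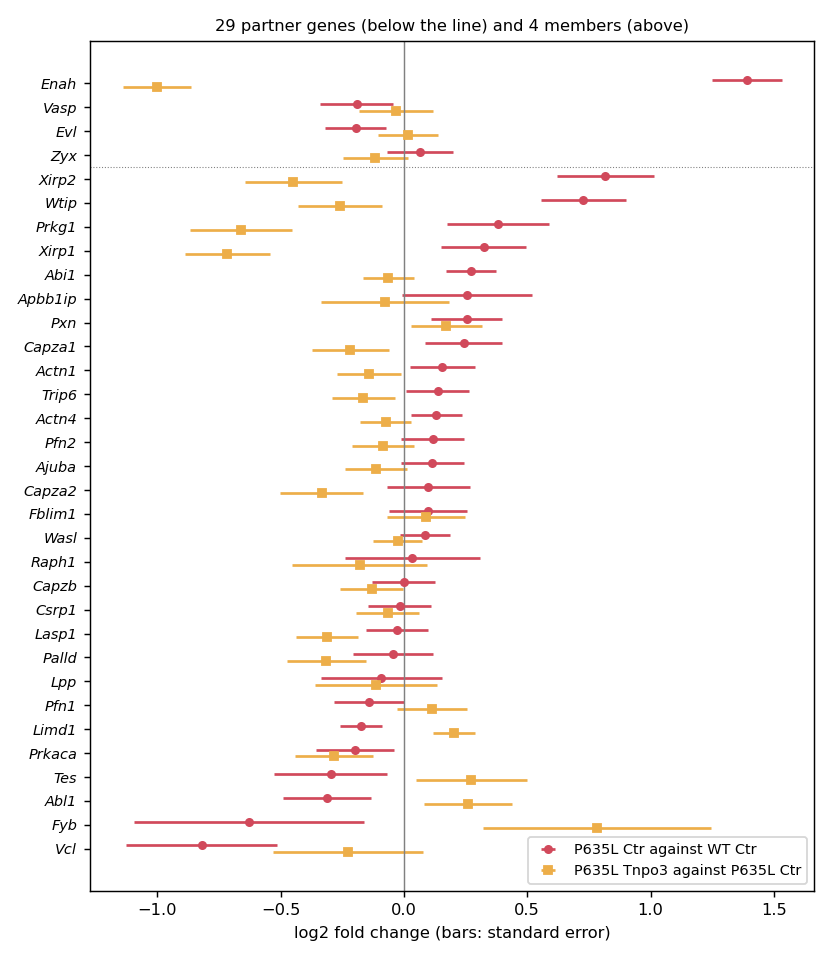
Log2 fold change (x axis) with standard error (bars) of 29 partner genes and the 4 members for P635L Ctr against WT Ctr (circles) and P635L Tnpo3 against P635L Ctr (squares). Enah lies outermost in both, at 1.39 and -1.001, and most partners lie within 0.5 of zero.

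At the level of splicing, *Enah* showed lower inclusion of the 732-base segment in P635L Ctr than in WT Ctr hearts. The inclusion level, the share of transcripts that hold the segment, was 0.576, 0.396, 0.600 and 0.527 in the 4 WT Ctr libraries and 0.372, 0.373, 0.384 and 0.307 in the 4 P635L Ctr libraries (rMATS lists libraries in an order the sources used here do not state). All P635L Ctr libraries lay below all WT Ctr libraries, and the P635L Ctr values lay closely together. The share of all events whose groups did not overlap was not counted in this contrast, so nothing is read from the separation. The authors' deposited table gives a difference of -0.166 with a false discovery rate (FDR) of 0.0416. An event was called at an FDR below 0.05 with a difference of 0.1 or more, if its libraries averaged 10 or more junction reads. This was 1 of 23 member events with enough reads, in the contrast the members were selected on, where 2.52% of all events and 2.77% of events of this type (alternative acceptors) were called. The WT Ctr values rest on 26 to 155 junction reads per library and the P635L Ctr values on 271 to 486. An edgeR test of the same reads in place of the rMATS FDR called no member event and 28 events in all.

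The lower inclusion in P635L Ctr came with more reads of both forms. Summed over each group and scaled to the effective library sizes, the long form had 0.863 junction CPM in WT Ctr and 1.5 in P635L Ctr, 1.74-fold, and the short form 0.887 and 2.66, 3.00-fold. With the Tnpo3 virus in P635L hearts the long form had 0.781 and the short form 1.04 junction CPM. Both forms were thus lower there than in P635L Ctr, the short form by the larger ratio. In WT Tnpo3 hearts the long form had 0.591 and the short form 0.988 junction CPM. The long form's share of such sums was 0.374 in WT Tnpo3, 0.36 in P635L Ctr and 0.493 in WT Ctr. These are group sums, since the splicing tables do not tie their libraries to the count table, and they carry no SD.

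In P635L Tnpo3 hearts the inclusion levels of the long form were 0.429, 0.432, 0.551 and 0.365, a mean of 0.444 ± 0.078 (SD, n = 4), between P635L Ctr at 0.359 ± 0.035 and WT Ctr at 0.525 ± 0.091. The group overlapped both. Against P635L Ctr the difference was 0.0853 (adjusted p = 0.92 by edgeR on the junction reads, p = 0.114 by an exact two-sided permutation test). Against WT Ctr the authors' deposited table gives -0.081 with an FDR of 0.861. WT Tnpo3 libraries spread most widely, with 0.191, 0.267, 0.619 and 0.526, so that the difference of 0.0435 between P635L Tnpo3 and WT Tnpo3 (exact permutation p = 0.686) turned to -0.0264 or to 0.1163 when single libraries were left out. The junction reads of 34 to 116 per WT Tnpo3 library limit the precision here.

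The protein-coding cassette exons of *Enah* printed above differed little between groups. The 63-base 11a exon was in most transcripts: its inclusion level was 0.834 ± 0.031 in WT Ctr, 0.837 ± 0.063 in WT Tnpo3, 0.890 ± 0.042 in P635L Ctr and 0.851 ± 0.050 in P635L Tnpo3 (SD, n = 4 each). The groups overlapped and no table called it. The 57-base INV exon was near absent, with inclusion levels from 0 to 0.032 over the 16 libraries in its event with enough reads. Both exons were named here for what is known of them, with their values already seen. Of the 15 distinct *Enah* events, 6 were in all 3 tables, and no other *Enah* event passed the rule in any of them.

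In *Zyx*, 2 events were called with the Tnpo3 virus in WT hearts, where 0.941% of all events, 1.61% of retained introns and 0.82% of skipped exons were called. The first was retention of a 137-base intron (chr6:42327054-42327190, plus strand), upstream of the start codon. Its inclusion level was 0.395, 0.277, 0.188 and 0.359 in WT Ctr and 0.150, 0.176, 0.110 and 0.221 in WT Tnpo3, a difference of -0.141 with an FDR of 0.0221 in the authors' deposited table. The groups overlapped by 1 WT Ctr library. The second was the 93-base coding exon printed above, with 0.886, 0.868, 0.896 and 0.839 in WT Ctr and 0.735, 0.714, 0.846 and 0.739 in WT Tnpo3, a difference of -0.114 with an FDR of 0.0495. The WT Tnpo3 libraries lay below, except that the highest of them passed the lowest WT Ctr library. An edgeR test in place of the rMATS FDR called neither of them, and 0 events in all.

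In P635L hearts the mean inclusion of the same intron was higher with the Tnpo3 virus, a difference that was not called. P635L Ctr libraries had 0.205, 0.241, 0.173 and 0.256, and P635L Tnpo3 libraries 0.271, 0.315, 0.321 and 0.279. The P635L Tnpo3 values all lay above those of P635L Ctr, a difference of 0.0777 (adjusted p = 0.915 by edgeR, exact permutation p = 0.0286), and above those of WT Tnpo3, a difference of 0.1322 (adjusted p = 0.932, exact permutation p = 0.0286). Against WT Ctr they overlapped, with -0.008 in the authors' deposited table. Over all events, groups did not overlap for 3.43% between P635L Tnpo3 and P635L Ctr and for 2.74% between P635L Tnpo3 and WT Tnpo3. An exact permutation p of 0.0286 is the smallest that 4 against 4 libraries allow. The difference between the virus effects in the 2 genotypes was not tested for this intron. For the 93-base exon, P635L Ctr had 0.888 ± 0.047 and P635L Tnpo3 0.8285 ± 0.0655 (SD, n = 4 each), with groups that overlapped.

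Another *Zyx* event is listed as a pair of mutually exclusive exons, but its values are no share of an exon choice. The exon whose position is listed for it (chr6:42333366-42333544) was included at 0.979 to 1 in every library in an event of its own. The listed inclusion level was 0.403 ± 0.015 in WT Ctr, 0.402 ± 0.020 in WT Tnpo3, 0.353 ± 0.009 in P635L Ctr and 0.318 ± 0.020 in P635L Tnpo3 (SD, n = 4 each), and thus compares reads of junctions that most transcripts can hold together. The authors' deposited tables give -0.049 for P635L Ctr (FDR 0.192) and -0.085 for P635L Tnpo3 (FDR 0.00203) against WT Ctr, so the latter passed the FDR, as 5.12% of all events there did, and not the minimum difference. The event is named after its values were seen, and no change of a *Zyx* exon is read from it.

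**Figure D5:**
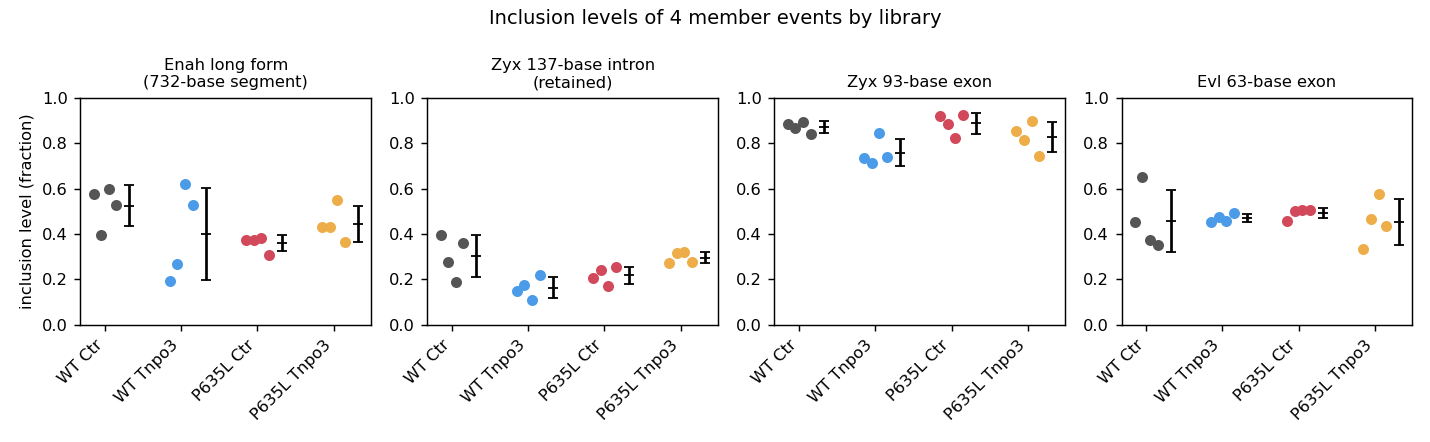
Inclusion level (y axis, fraction from 0 to 1) of 4 member events by library (points, in the listed order of the splicing tables) with group mean and SD (black bar, n = 4). The long form of Enah has its lowest mean in P635L Ctr, at 0.359 ± 0.035, although WT Tnpo3 libraries reach down to 0.191. The Zyx intron has its lowest mean in WT Tnpo3, whose libraries at 0.110 to 0.221 overlap those of WT Ctr and P635L Ctr.

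*Evl* and *Vasp* had no called event in any table. The 63-base exon of *Evl* was in about as many transcripts as not, with inclusion levels of 0.457 ± 0.136 in WT Ctr, 0.470 ± 0.018 in WT Tnpo3, 0.492 ± 0.022 in P635L Ctr and 0.453 ± 0.1001 in P635L Tnpo3 (SD, n = 4 each). A listed donor choice over the same exon (chr12:108649454-108649669) has the same skipping reads as this exon, and its longer form would keep an 86-base intron that was retained at 0.025 to 0.108 in every library, so its values are not given as a separate choice. *Vasp* had 6 distinct events, 1 of them in all 3 tables, a 52-base exon that in this event was included at 0.976 or more in every library. The *Vasp* exon is named after its values were seen.

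Over all members, edgeR called 0 of 20 events between P635L Tnpo3 and P635L Ctr and 0 of 19 between P635L Tnpo3 and WT Tnpo3. It called 0.0375% and 0.00733% of all events there, and the lowest adjusted p among the members was 0.914 and 0.932. Unadjusted, 0 and 1 of them had p under 0.05. Groups did not overlap for 3 of the 20 events and 2 of the 19, where 3.43% and 2.74% of all events had groups that did not overlap. These were the *Zyx* intron and the *Zyx* event listed as mutually exclusive in both, and the *Evl* donor event in the first. A quasi-binomial model, chosen after these counts were seen, also called none of them, and 0.184% and 0.0696% of all events. Its lowest adjusted p was 0.0418, between P635L Tnpo3 and WT Tnpo3, at the *Zyx* event listed as mutually exclusive, whose difference of -0.0837 was under the minimum. For that event the unadjusted p was 2.81e-05 by the quasi-binomial model and 0.195 by edgeR, whose fit used a dispersion common to all events.

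Among the partners, the deposited tables held 6 called events of 69 with enough reads in P635L Ctr, 5 of 66 in P635L Tnpo3 and 1 of 65 in WT Tnpo3 hearts, each against WT Ctr. Over all events, 2.52% were called in P635L Ctr, 2.12% in P635L Tnpo3 and 0.941% in WT Tnpo3 hearts. In P635L Tnpo3 hearts 0 of the 28 member events were called. A 102-base exon of *Pxn* was included more in both mutant groups, by 0.161 in P635L Ctr (FDR 0.0163) and 0.204 in P635L Tnpo3 (FDR 0.0043) in the authors' deposited tables. An 86-base exon of *Actn4*, which encodes an alpha-actinin, was included less in both, by -0.289 (FDR 2.87e-06) and -0.277 (FDR 0.00179). These comparisons share the WT Ctr libraries. The exons of *Pxn* and *Actn4* were picked from the called events, and the other called partner events are given only as counts. No test is read from P635L Ctr against WT Ctr.

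The genes whose log CPM followed *Enah* most closely over the 16 libraries were *Prkci*, *Paqr6*, *Atf5* and *Inhba*, with Pearson's r of 0.969, 0.968, 0.959 and 0.956, and ENSMUSG00000121059 with 0.954. *Prkci* encodes an atypical protein kinase C and *Inhba* a subunit of activin. Spearman's rho was 0.832 for *Prkci* and 0.765 for *Inhba*, lower than r. Closest to *Zyx* were *Mob3a*, *Tagln2* and *Myof*, with r of 0.907, 0.866 and 0.843. Closest to *Vasp* was *Rnase6* at 0.913 and to *Evl* *Top2a* at 0.918, 2 relations in which WT Ctr replicate 1 takes part. These coefficients describe libraries that share groups and composition, and no test is attached to them.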

How the data were processed

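Libraries were poly(A) RNA-seq of 16 left ventricles, 4 per group, grouped by their labels. The authors' deposited counts per gene, and rMATS and DESeq2 tables, were used; STAR 2.7.9a, featureCounts 2.0.6, DESeq2 and build GRCm39 are named in the submitters' processing notes, without roles. Per the file headers, rMATS gives inclusion and skipping junction reads, inclusion levels, p-values with FDR, and the inclusion difference (a score, here turned to second group minus WT Ctr). The authors' deposited log2 fold changes were likewise turned.

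Counts were fitted with edgeR 4.0.16 in R 4.3.3 (TMM, filterByExpr, quasi-likelihood, all 16 libraries, 18662 genes, Benjamini-Hochberg, threshold 0.05). CPM and RPKM use TMM library sizes. Junction reads were fitted with edgeR with the library as block, for events held in both tables of a contrast with at least 10 reads on average. Both scripts were tested on simulated data. The exact permutation tests are two-sided over 70 assignments, on log2(CPM + 0.5) for genes and on inclusion levels for events. Alternatives used DESeq2 1.42.0 and limma 3.58.1.

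The members and lists were chosen with earlier results of these data known. Named were the 4 members, *Tnpo3*, listed partners and events called in a deposited table; other events are given by counts and ranges, except where stated. Genes like a member were ranked by Pearson's r of log CPM. Gene names came from the splicing tables for 11342 genes and from a supplied table for 40786. Each mouse is 1 library. Counts per library ran from 28493249 to 85922669. The counting error is part of the spread that edgeR fits. For genes, p-values measure the spread between mice. For events, the edgeR fit used a dispersion common to all events, so its p-values do not follow each event's own spread alone. It called few events over all, so the lack of a call there is weak evidence of no difference. Few junction reads limit the precision of inclusion levels.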

Additional observations from a re-analysis of the deposited data

Results flagged for a closer look

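The effect of the Tnpo3 virus on *Enah* in P635L minus that in WT hearts was -1.03 on the log2 scale, with an adjusted p of 0.0188 by edgeR. This interaction contains the difference between P635L Ctr and WT Ctr that the members were selected on, so it is no independent test, and its call was lost in 4 of 23 alternatives. Replicate values that stood apart from the other 3 of their group were found in 3 of 40 groups of 4 that were looked at, and chance gives about 1 in 20. *Evl* had 40.4 CPM in WT Ctr replicate 1, against 27.99 to 29 in the other 3, in the library that was also highest in leukocyte markers. The long form of *Enah* was included at 0.307 in 1 P635L Ctr library, against 0.372 to 0.384 in the others. The 63-base exon of *Evl* was included at 0.459 in 1 P635L Ctr library, against 0.5 to 0.504. The cause was not tested in any of them.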

How the results depend on the processing

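The *Enah* differences between P635L Ctr and WT Ctr (1.34 to 1.56) and between P635L Tnpo3 and P635L Ctr (-1.19 to -0.91) kept their direction, and the latter its call, under all 16 alternatives each: other size factors, DESeq2, no filter, fewer groups, a replicate block and libraries left out. With the replicate block, that is, same-numbered libraries taken as pairs, they were 1.40 and -1.02, and the interaction was -1.05. Same-numbered libraries correlated from -0.257 to 0.552, so the numbers were not taken to pair mice, and the block changed no member's call. The interaction of *Enah* was -1.03 without the 3 *Xist*-high libraries, with 0 members called, and -1.22 to -0.96 with 0 to 1 members called when single libraries were left out. The cause was not tested.

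Small differences that were never called changed sign. Between P635L Ctr and WT Ctr the alternatives gave -0.39 to 0.01 for *Vasp* and -0.02 to 0.19 for *Zyx*. Leaving out single libraries gave these ranges: with the virus in P635L, *Vasp* -0.11 to 0.04 and *Evl* -0.03 to 0.11. With the virus in WT, *Enah* -0.02 to 0.12, *Vasp* -0.29 to 0.03, *Evl* -0.10 to 0.09 and *Zyx* -0.17 to 0.03. Between P635L Tnpo3 and WT Ctr, *Zyx* -0.13 to 0.07, and 0.00 with upper-quartile factors. In the interaction, *Vasp* -0.06 to 0.25, *Evl* -0.08 to 0.14 and *Zyx* -0.15 to 0.05, with *Zyx* at 0.11 without the libraries rich in ENSMUSG00000119584 and 0.01 without the *Xist*-high ones. The long-form inclusion difference of *Enah* between P635L Tnpo3 and WT Tnpo3 ranged from -0.0264 to 0.1163.

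Called member events in P635L Ctr went from 1 to 0, and in WT Tnpo3 from 2 to 0, with a minimum difference of 0.2, with edgeR and with the quasi-binomial model (added after seeing the data). In P635L Tnpo3 against WT Ctr they went from 0 to 1 with a minimum of 0.05, the *Zyx* event listed as mutually exclusive. Over all genes, calls ranged from 282 to 2846 (724 in the text) for the virus in P635L, 282 to 1135 (573) for P635L Tnpo3 against WT Ctr, 280 to 1887 (694) against WT Tnpo3, 0 to 4 (1) for the virus in WT and 52 to 414 (94) for the interaction. Over all events they ranged from 28 to 1524 (877) in P635L Ctr, 6 to 1287 (734) in P635L Tnpo3 and 0 to 525 (300) in WT Tnpo3 against WT Ctr, 1 to 54 (11) between the P635L groups and 0 to 19 (2) between the Tnpo3 groups.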
